A study of Mus musculus with 7 samples.

Results

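The protein genes of the cytosolic ribosome were examined in eosinophils, the granulocytes of type 2 immunity, sorted from mouse muscle. They were the rows of the count table whose symbol is Rps or Rpl followed by a number, with or without a closing letter that names a related copy, plus Rpsa, Rplp0, Rplp1 and Rplp2. Symbols that contain -ps and the kinases named Rps6k were left out. The annotation GENCODE vM21 lists 83 of these genes as protein-coding and Rps4l as a transcribed processed pseudogene. This rule gave 84 genes of 24421 in the table, 33 of the small subunit and 51 of the large subunit, and it used no measured value.

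The study compared 3 libraries from mice of wild-type genotype (WT) with 4 libraries from mice labelled IL5-Tg, a name that refers to a transgene for the eosinophil growth factor IL-5. All 7 libraries came from muscle taken 3 days post ntx, an abbreviation that the labels do not spell out. Cells were sorted as positive for CD45 and SiglecF, negative for NK1, Ly6G and CD3e, and of the CD11b level that the protocol writes as CD11bing. The labels used here do not name the promoter or the cells that drive the transgene, the strain or the age of the mice. The series' title speaks of mdx mice, while the labels of these samples give only WT or IL5-Tg. Nothing in them ties a library to a mouse of its own. Every p-value below is therefore a measure of how far these libraries spread, which may be technical.

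Libraries held 11581365 to 20231509 counts in total and 9665093 to 17447106 on genes. As a check of the labels, Il5 had 23, 0 and 0 reads in the WT libraries and between 3722 and 7097 reads in each IL5-Tg library. The eosinophil markers Siglecf and Ccr3 were read in all 7 libraries, at 251 to 857 and 575 to 1393 CPM (the count scaled to library size with the trimmed mean of M-values, TMM). The summed level of 12 eosinophil markers was 3939 to 7591 CPM in WT and 5299 to 10214 CPM in IL5-Tg libraries, which overlap. Of these 12, 3 were called higher and 0 lower in IL5-Tg, beside 0.338% and 0.0724% of all tested genes. For 5 of the 12, every IL5-Tg library was above every WT library, beside 4.76% of all tested genes. RNA of other cells was present too. The summed level of 12 macrophage and monocyte markers was 2619 to 5225 CPM in WT and 3335 to 5834 CPM in IL5-Tg libraries, and that of 9 fibroblast markers 18.7 to 3261 and 1991 to 4964 CPM. Sums for the neutrophil list and for the mast cell and basophil list separated the genotypes. The 10 neutrophil markers were at 10248 to 13814 CPM in WT and 3333 to 5932 CPM in IL5-Tg (of 9 tested, 1 called lower and 1 higher). The 7 mast cell and basophil markers were at 221 to 492 and 57.2 to 78.9 CPM (of 5 tested, 1 called lower). The part of such cells' RNA in the members' fold changes was not tested.

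Each ribosome joins a small subunit, which holds the messenger RNA and its decoding centre, to a large subunit, which forms the peptide bond. Most of their proteins are essential and present in equal numbers, and their messenger RNAs are among the most abundant in most cells. In mammals these messenger RNAs start with a C followed by an unbroken run of pyrimidines, the terminal oligopyrimidine (TOP) motif, through which mTOR signalling controls their translation. The RNA level of these genes measures neither ribosome number nor protein synthesis. Mature eosinophils are non-dividing cells with little growth, and in a bulk library fewer cells of a type and less RNA per cell cannot be told apart.

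The start sites show sequence features that part of this gene class carries. RefSeq's promoter table for GRCm38.p6 matched 63 of the 84 genes, with 75 annotated starts. The windows below run from 40 bases before to 20 bases after the annotated start, and capitals mark the longest run of C and T that overlaps the 20 bases on either side of it. Where a gene had several annotated starts, the start with the longest run was taken. Rps9 and Rplp0 are shown as the genes of the highest mean CPM in each subunit, and Rps6, Rps27 and Rps10 as further runs at the start, chosen after their values were seen. The windows are chr7:3704001-3704060 (plus strand), chr5:115559427-115559486 (plus), chr4:86857348-86857407 (minus), chr3:90213629-90213688 (minus) and chr17:27635225-27635284 (minus), in that order of genes.
Rps9: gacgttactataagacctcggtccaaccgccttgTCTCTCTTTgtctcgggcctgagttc
Rplp0: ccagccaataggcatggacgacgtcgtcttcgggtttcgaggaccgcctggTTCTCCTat
Rps6: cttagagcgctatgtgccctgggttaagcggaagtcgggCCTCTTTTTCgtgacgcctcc
Rps27: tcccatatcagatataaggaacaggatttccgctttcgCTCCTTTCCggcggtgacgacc
Rps10: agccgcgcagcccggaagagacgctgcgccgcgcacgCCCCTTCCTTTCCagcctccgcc

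A run of at least 8 pyrimidines on the sense strand overlapped the 20 bases on either side of 33 of the 75 starts, or 44.0%. Over all 32841 starts in the table the share was 18.9%. Of the 63 matched genes, 31 had such a run, and the others had shorter ones. The run spanned the start in Rps9, and in Rps6, Rps27 and Rps10, which were picked as examples of such runs. In Rplp0 the longest run had 7 bases and began at base 12, counted from 1 at the annotated start. In windows of 300 bases, from 250 before to 50 after the start, the letters CCGGAAG, as in motifs of ETS factors, were found on either strand at 36.0% of member starts and 8.86% of all starts. AAGATGG, as in motifs of YY1, was found on either strand at 16.0% and 6.34%. TATAAA, the core of the TATA box, was found on the sense strand at 6 of the 75 member starts and at 8.32% of all starts. Such matches describe letters only, and annotated starts can lie some bases from the start that a cell uses.

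The level of these genes spanned a wide range that was much the same in both genotypes. Of the 84 genes, 77 had a mean of at least 10 CPM over the 7 libraries, 32 of the small and 45 of the large subunit. Set per kilobase of annotated transcript, those 77 genes had a median of 629 CPM per kilobase, with quartiles at 319 and 1047. The highest were the stalk protein gene Rplp1 (3688 CPM per kilobase), Rps14 (3401), Rplp2 (3282), Rps15 (2902) and Rps9 (2716). The lowest were Rps4l (23.0), Rpl7l1 (59.4) and Rpl22l1 (66.8), all copies related to another member. Levels per kilobase of Rps20, Rps24, Rps3 and Rpl5 were computed with long annotated transcripts, so they may be too low. The 10 genes with the highest CPM held 37.0% of the summed level of all 84.

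The remaining 7 genes were below 10 CPM, and 4 of them encode standard ribosomal proteins. Rpl26 had 5 reads in all, each of them in IL5-Tg replicate 4. Rps27 had 123, 8 and 22 reads in WT and 20 to 28 in IL5-Tg libraries, a mean of 2.48 CPM. Rpl30 and Rpl34 were at 8.66 and 7.39 CPM. All 4 proteins are standard parts of the large or small subunit. Like those of many other members, their transcripts share much of their sequence with other annotated genes, as counted next.

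Ribosomal protein genes have many processed pseudogenes, and reads here were only 42 bases long. Each member's transcript in GENCODE vM21 was divided into overlapping windows of 42 bases, and a median of 57.9% of a member's windows also occurred in another annotated gene. For Rps27 (chr3:90212522-90213651, minus strand, mm10) the share was 98.7%, mostly through Rps27rt, whose coding sequence of 252 bases is identical to that of Rps27. Rps27rt had 0 reads in every library. For Rpl26 the share was 73.4%, for Rpl30 79.8% and for Rpl34 54.9%, and the leading copies Gm15772 (of Rpl26) and Rpl34-ps1 (of Rpl34) had 0 reads as well. Over the 84 members, Spearman's rho between the share of such windows and the mean level per kilobase was 0.01. How the counting step treated such reads is not known here, so the levels of these 4 genes are uncertain. The part of shared sequence in their low counts was not tested.

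**Figure D1:**
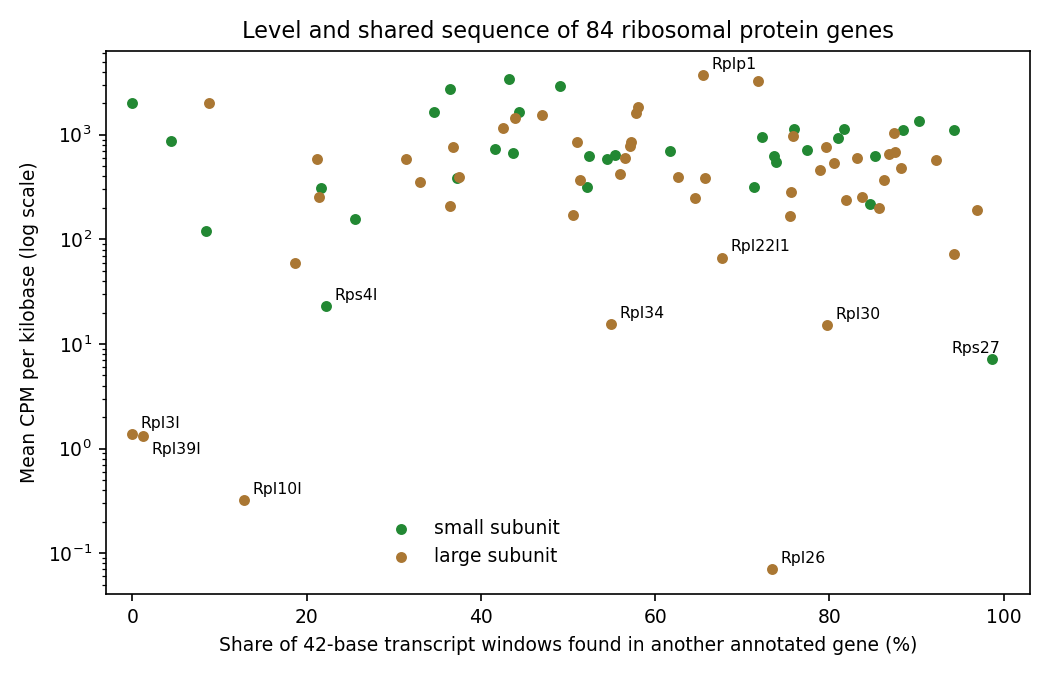
Mean level of each of the 84 genes in CPM per kilobase of transcript (vertical, log scale) against the percentage of its 42-base windows that occur in another annotated gene (horizontal), by subunit. Rpl26, Rps27, Rpl30 and Rpl34 lie below the other points with a similar share of such windows, and the low copies Rpl3l, Rpl39l and Rpl10l share few or none.

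Members that are related copies of another member are shown in sequence for the pairs Rps27 with Rps27l and Rpl39 with Rpl39l. Of the 5 members with a positive fold change, 3 were such copies (Rpl3l, Rps4l and Rpl39l), and of these only Rpl39l is shown. The coding sequences below are from GENCODE vM21, in pairs aligned without gaps, with capitals at the bases that differ within a pair. Rps27 and Rps27l match at 192 of 252 bases (76.2%) and Rpl39 and Rpl39l at 130 of 153 (85.0%). No 42-base window is shared within either pair, so reads inside the coding sequence can be told apart.
Rps27: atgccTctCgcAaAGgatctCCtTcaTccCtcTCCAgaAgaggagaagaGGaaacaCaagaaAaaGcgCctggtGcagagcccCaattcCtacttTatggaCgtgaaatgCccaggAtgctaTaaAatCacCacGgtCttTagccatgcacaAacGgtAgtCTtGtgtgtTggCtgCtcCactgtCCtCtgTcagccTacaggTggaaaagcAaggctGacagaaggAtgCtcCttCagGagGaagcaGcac
Rps27l: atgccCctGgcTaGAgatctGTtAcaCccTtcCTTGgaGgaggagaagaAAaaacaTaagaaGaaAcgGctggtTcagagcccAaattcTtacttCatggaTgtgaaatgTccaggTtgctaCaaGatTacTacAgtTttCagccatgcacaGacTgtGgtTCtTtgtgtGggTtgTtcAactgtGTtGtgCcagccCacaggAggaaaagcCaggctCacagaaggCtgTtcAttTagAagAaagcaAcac
Rpl39: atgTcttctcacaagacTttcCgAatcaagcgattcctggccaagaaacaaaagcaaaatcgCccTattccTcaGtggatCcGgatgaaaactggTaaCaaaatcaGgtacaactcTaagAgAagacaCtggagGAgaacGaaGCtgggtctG
Rpl39l: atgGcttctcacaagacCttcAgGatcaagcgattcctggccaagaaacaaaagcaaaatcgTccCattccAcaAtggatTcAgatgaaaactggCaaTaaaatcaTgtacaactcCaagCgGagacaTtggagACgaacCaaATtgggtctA

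The comparison of genotypes asked whether eosinophil RNA from IL5-Tg muscle held more or less ribosomal protein transcript than that from WT muscle. No ribosomal protein gene passed the test in either direction. In edgeR's quasi-likelihood test over 12428 genes, with Benjamini-Hochberg adjustment, 82 members were tested (all but Rpl10l and Rpl26) and 0 were called at an adjusted p under 0.05, where 0.41% of all tested genes were called (0.338% higher and 0.0724% lower in IL5-Tg). The smallest adjusted p of a member was 0.454, for Rps24. At an unadjusted p under 0.05, 3 members were lower in IL5-Tg libraries (Rps24, Rpl35a and Rpl31) and 0 higher, beside 5.54% and 3.49% of all tested genes. DESeq2 and limma-voom also called 0 members. At an unadjusted p under 0.05, DESeq2 had 3 members lower and limma-voom 11, beside 5.28% and 4.77% of all tested genes, and both had 0 higher.

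Although no member was called, most had a small negative fold change. The log2 fold change, IL5-Tg against WT, was negative for 77 of the 82 tested members, against 47.9% of all tested genes. Its median was -0.27, with quartiles at -0.41 and -0.16, while the median over all tested genes was 0.03. Both subunits were alike, with a median of -0.30 over 33 small-subunit and -0.25 over 49 large-subunit genes. Members varied together from library to library, so the count of negative values is not a count of independent observations. Most of the shift depended on 1 library, as the next values show.

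**Figure D2:**
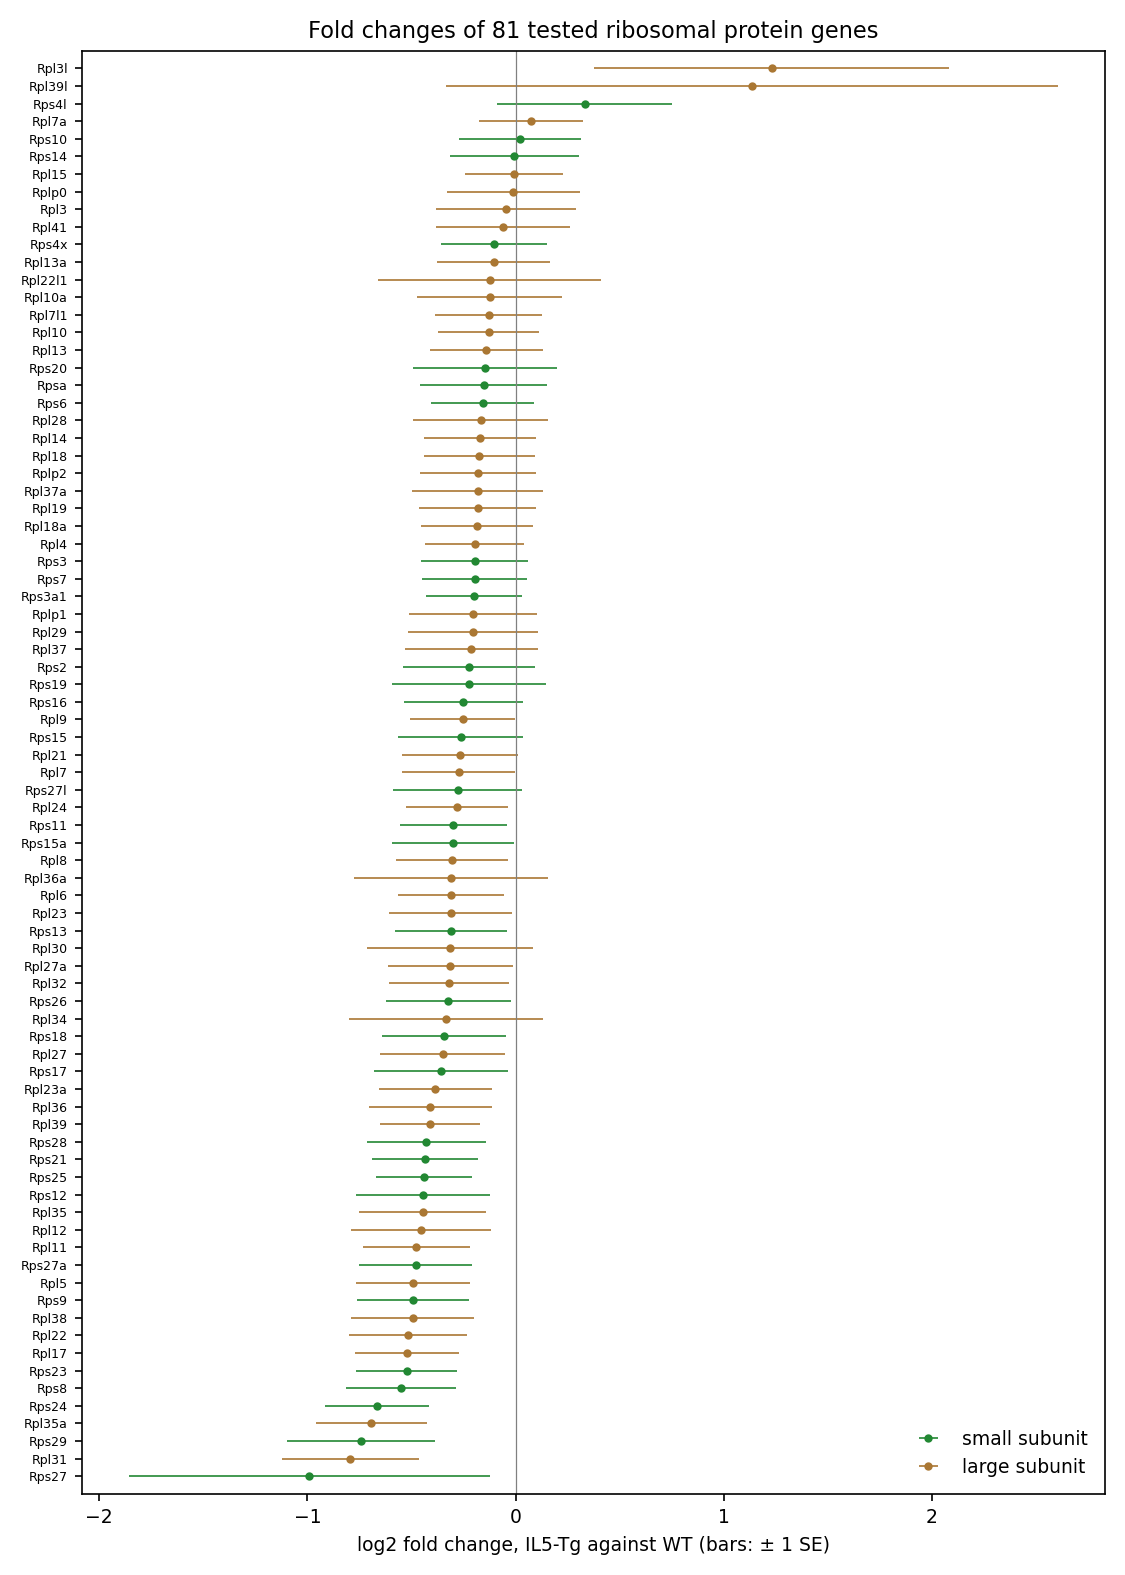
Log2 fold change of 81 of the 82 tested genes, IL5-Tg against WT, with bars of 1 standard error (horizontal) and genes sorted by value and coloured by subunit. Values run from -0.99 for Rps27 to 1.23 for Rpl3l, and 76 of the 81 points lie left of 0.

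The share of gene-assigned reads that fell on the 84 genes was 5.12%, 6.93% and 3.39% in WT replicates 1, 2 and 3. The 4 IL5-Tg libraries had 4.59%, 3.93%, 4.43% and 4.65%, in the order of their replicate numbers. The WT values lay on both sides of all 4 IL5-Tg values, so the groups overlapped. The WT mean was 5.15% ± 1.77 (SD, n = 3) and the IL5-Tg mean 4.40% ± 0.325 (SD, n = 4), a difference of -0.75 percentage points that is smaller than the WT spread. Reads assigned to no feature made up 15.6% to 18.2% of WT and 9.15% to 13.0% of IL5-Tg libraries, without overlap, and with the rows that name no gene in the total the difference was -0.38 points. The subunits moved in parallel, with the small subunit at 2.44%, 3.33% and 1.69% in WT and 1.89% to 2.19% in IL5-Tg, and the large subunit at 2.68%, 3.60% and 1.71% in WT and 2.05% to 2.48% in IL5-Tg.

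**Figure D3:**
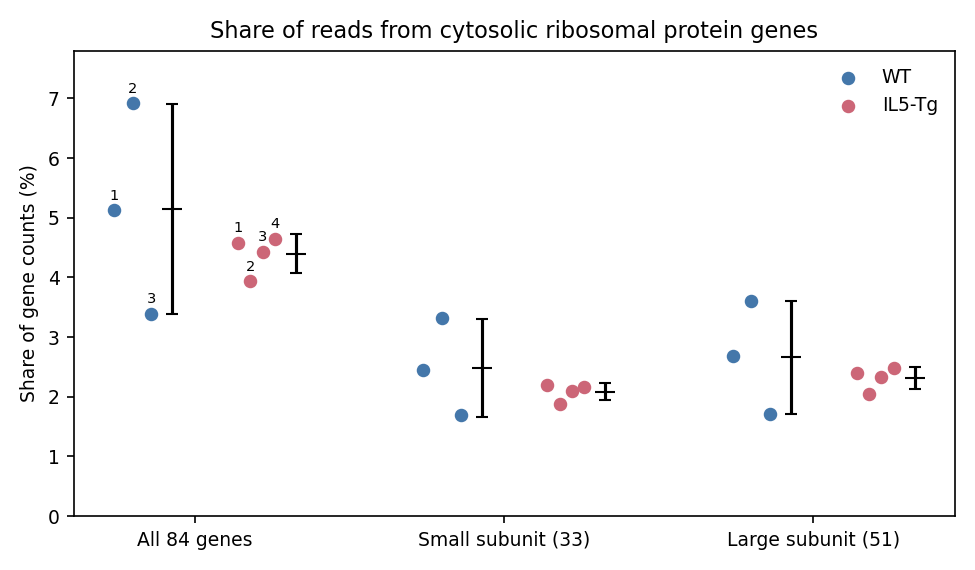
Percentage of gene-assigned reads that came from all 84 genes, the 33 small-subunit genes and the 51 large-subunit genes in each library (points, with replicate numbers on the left), with the mean and 1 SD of each group (bars). The 3 WT points for all genes spread from 3.39% to 6.93%, around IL5-Tg points between 3.93% and 4.65%.

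The members moved as a block between the WT libraries. Among the 77 genes at 10 CPM or more, WT replicate 2 held the highest value for 63 and WT replicate 1 for the other 14, while WT replicate 3 held the lowest value for 51. Over all tested genes at that level, WT replicate 2 was highest for 17.1% and WT replicate 3 lowest for 27.5%. The median deviation of the 77 genes from their own mean over libraries was 0.17, 0.63 and -0.40 in WT replicates 1, 2 and 3 and between -0.13 and -0.01 in the IL5-Tg libraries, on the log2(CPM + 1) scale. The median correlation over 2926 pairs of these genes was 0.75 across the 7 libraries, given as a description, since the genes share the libraries.

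**Figure D4:**
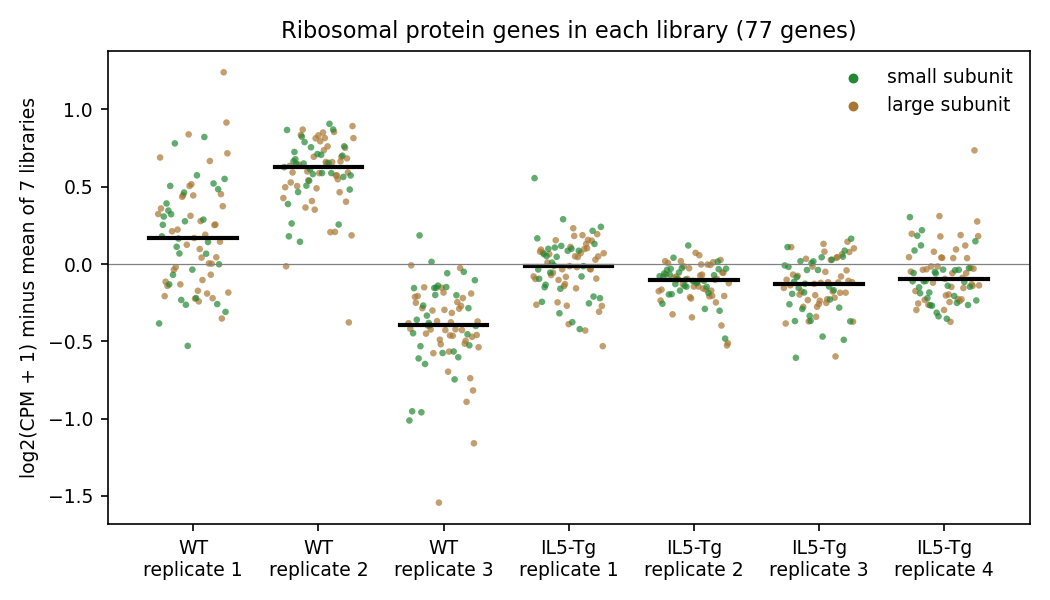
Deviation of each of 77 genes from its mean over the 7 libraries, in log2(CPM + 1) (vertical), by library (horizontal), coloured by subunit, with the median as a line. The medians of the 4 IL5-Tg libraries lie between -0.13 and -0.01, and those of the WT libraries at 0.17, 0.63 and -0.40.

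The spread within groups was accordingly unequal. The median SD of log2(CPM + 1) over the 77 members at 10 CPM or more was 0.535 in WT and 0.143 in IL5-Tg libraries. Over all 7916 tested genes at that level it was 0.504 and 0.288. The SD was larger in WT for 78 of the 82 tested members, beside 80.6% of all tested genes. A larger spread in WT was thus not particular to the members, though it was more frequent among them. With 3 WT libraries, these SDs are themselves imprecise.

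Of the settings run, leaving out WT replicate 2 moved the members' median most. Without WT replicate 2 the members' median became 0.02, beside 0.11 over all tested genes. There, 38 of 82 members were negative, beside 44.6% of all tested genes, and the share of reads differed by 0.14 percentage points the other way. Without WT replicate 3 the members' median became -0.47, beside -0.01 over all tested genes. In that fit 79 members were negative, beside 51.1% of all tested genes, and 21 were lower at an unadjusted p under 0.05, beside 4.03%. The smallest edgeR adjusted p was then 0.0820, so still 0 members were called. Without WT replicate 1 the median was -0.29, and without 1 of the IL5-Tg libraries it stayed between -0.29 and -0.23.

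**Figure D5:**
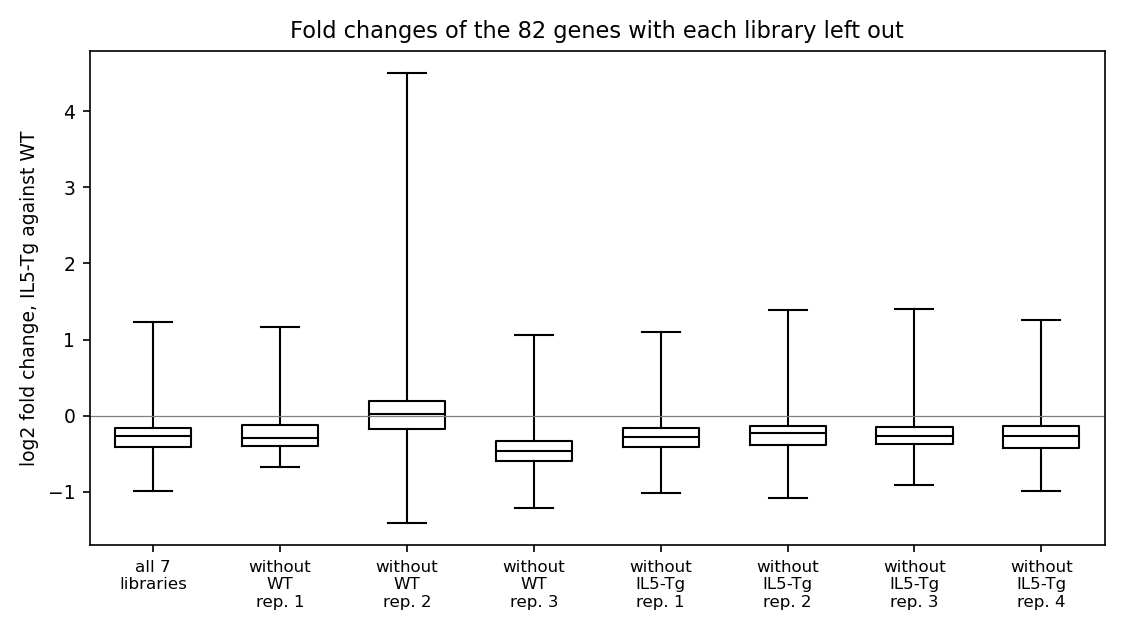
Log2 fold changes of the 82 tested genes, IL5-Tg against WT, with all libraries and with each library left out (boxes: quartiles and median; whiskers: lowest and highest gene). The median is near 0 only where WT replicate 2 is left out, and the high whisker there is Rpl39l, whose 2 remaining WT libraries held 1 and 0 reads.

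Some other features of the libraries moved along with these levels. WT replicate 3, lowest for most members, also had the lowest summed level of all 9 fibroblast markers (18.7 CPM, with Pdgfra and Lum at 0 reads), of the 12 macrophage and monocyte markers (2619 CPM, none at 0), of the 13 cell cycle genes (209 CPM, with Ccnb1 at 0 reads) and of the 6 muscle progenitor markers (3.40 CPM, with Pax7, Myod1, Myf5 and Myog at 0 reads). WT replicate 2, highest for most members, had the highest of the WT sums for each of these lists, at 3261, 5225, 678 and 322 CPM. In IL5-Tg libraries the same sums ran from 1991 to 4964, 3335 to 5834, 398 to 768 and 85.3 to 422 CPM, while the members varied little. Not every list followed this order. The sum of 12 eosinophil markers was 4671, 3939 and 7591 CPM in WT replicates 1, 2 and 3, highest where most members were lowest. The neutrophil sum and the mast cell and basophil sum were also highest of the WT libraries in replicate 3, at 13814 and 492 CPM. The part of the RNA behind any of these lists in the members' levels was not tested. Low counts were unevenly spread too. The most frequent low count was 5, 10 and 13 in WT and 1 to 4 in IL5-Tg libraries, and genes detected numbered 13813, 12759 and 10877 in WT and 13641 to 14391 in IL5-Tg.

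Within several libraries the deviations were related to base composition, with a sign that differed between libraries and did not follow the members' median deviation. Spearman's rho between a member's deviation in a library and the GC content of its transcript over 77 genes was -0.52, 0.38 and -0.09 for the WT libraries, in the order of their replicate numbers. For the IL5-Tg libraries it was 0.51, -0.09, 0.33 and -0.28. Over 7677 genes it was -0.51, 0.38 and -0.20, and 0.47, 0.24, 0.32 and -0.38, much the same except in IL5-Tg replicate 2. The members had GC contents from 40.6% to 61.3% with a median of 51.9%, near the 51.2% of all genes at that level. With a GC offset, added after seeing the data, the members' median was -0.36, 13 were lower at an unadjusted p under 0.05, beside 7.31% of all tested genes, and 0 were called.

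Among the members with the smallest p and a negative fold change, Rps24, a small-subunit protein whose human gene is mutated in Diamond-Blackfan anaemia, was at 716, 723 and 461 CPM in WT and 370, 443, 347 and 436 CPM in IL5-Tg libraries. All 4 IL5-Tg values were below the lowest WT value. The means were 633 ± 149 CPM (SD, n = 3) in WT and 399 ± 47.9 CPM (SD, n = 4) in IL5-Tg. The log2 fold change was -0.67 ± 0.25 (SE), with an edgeR adjusted p of 0.454. Rps25, which some viral messenger RNAs need for their translation and which was named after its values were seen, was the other member with groups that did not overlap in this direction, at 571, 475 and 384 CPM in WT and 327 to 378 CPM in IL5-Tg (log2 fold change -0.44 ± 0.23, edgeR adjusted p = 0.650). These 2 genes of 82 stand beside 4.6% of all tested genes with every IL5-Tg library below every WT library.

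Rpl35a, another Diamond-Blackfan gene, was at 494, 647 and 319 CPM in WT and 277 to 328 CPM in IL5-Tg, so that only WT replicate 3 overlapped the IL5-Tg libraries (log2 fold change -0.69 ± 0.27, edgeR adjusted p = 0.468). Rpl31, a large-subunit protein near the exit of the peptide tunnel, was at 208, 235 and 97.4 CPM in WT and 87.1, 88.3, 97.4 and 143 CPM in IL5-Tg. Here WT replicate 3 lay inside the IL5-Tg range (log2 fold change -0.79 ± 0.33, edgeR adjusted p = 0.510). Rps23, a protein of the decoding centre, had 401, 423 and 261 CPM in WT and 230 to 280 CPM in IL5-Tg (-0.52 ± 0.24, edgeR adjusted p = 0.576). These 5 genes kept a negative value under each alternative setting that was run, over -0.89 to -0.53 for Rps24 and -1.07 to -0.52 for Rpl31, and none was called.

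Few members had a positive value, and the larger ones were copies at low level. Rpl3l, the form of Rpl3 known from heart and skeletal muscle, had 16, 14 and 8 reads in WT and 34, 21, 40 and 45 in IL5-Tg libraries. In CPM it was 1.07 ± 0.371 (SD, n = 3) and 2.51 ± 0.696 (SD, n = 4), with no overlap, and it was the 1 member with every IL5-Tg library above every WT library, beside 4.76% of all tested genes (log2 fold change 1.23 ± 0.85 SE; edgeR adjusted p = 0.778). Beside it, the summed level of 10 muscle fibre markers was 127 to 460 CPM in WT and 480 to 1479 CPM in IL5-Tg libraries, also without overlap, and the part of muscle RNA in Rpl3l reads was not tested. Its partner Rpl3 stood at 260 to 781 CPM, with the lowest and the highest value both in WT.

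Rps4l, a copy of the X-linked Rps4x that is annotated as a transcribed processed pseudogene with 1 exon, was at 12.8, 26.8 and 7.94 CPM in WT and 16.1 to 25.5 CPM in IL5-Tg. The groups overlapped through WT replicate 2 (log2 fold change 0.33 ± 0.42, edgeR adjusted p = 0.907). Rpl39l, known from the testis, had 1, 12 and 0 reads in WT and 12, 14, 5 and 24 reads in IL5-Tg (1.14 ± 1.47, edgeR adjusted p = 0.907), and Rpl39 itself was at 182 ± 41.9 and 137 ± 14.5 CPM. Rpl10l, also known from the testis, had 5 reads in WT replicate 2, 34 in IL5-Tg replicate 4 and 0 elsewhere. Rpl7a, a large-subunit protein, was at 403 to 698 CPM in WT and 535 to 602 CPM in IL5-Tg (0.08 ± 0.25, turning negative with the GC offset, with a block by title start and without WT replicate 3).

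In the remaining pairs the copy was not always the lower member. Rps27l, known as a target of p53, was at 129, 82.8 and 47.4 CPM in WT and 68.3 to 75.8 CPM in IL5-Tg, a WT range that enclosed all IL5-Tg values. Rps27 itself had fewer reads than this copy, as described above, and its log2 fold change of -0.99 ± 0.87 became 0.26 without WT replicate 1. Rpl22, which can bind and repress the messenger RNA of its copy Rpl22l1, was at 430, 376 and 199 CPM in WT and 204 to 257 CPM in IL5-Tg (-0.52 ± 0.28, edgeR adjusted p = 0.670). Rpl22l1 varied most of the 77 genes, at 77.6, 24.6 and 13.9 CPM in WT and 25.9 to 54.4 CPM in IL5-Tg, and its value of -0.12 ± 0.53 became 0.89 without WT replicate 1 and 0.21 with the GC offset.

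The stalk of the large subunit, which recruits elongation factors, was among the most abundant groups. Rplp0, its base, was at 1589, 3257 and 1463 CPM in WT and 2319, 1953, 2241 and 1839 CPM in IL5-Tg. WT replicate 2 lay above and the other WT libraries below all 4 IL5-Tg libraries, with a log2 fold change of -0.01 ± 0.32. Rplp1 was at 1659, 3021 and 1292 CPM in WT and 1597 to 1839 CPM in IL5-Tg (-0.20 ± 0.31), and Rplp2 at 1172, 2102 and 1168 CPM in WT and 1199 to 1431 CPM in IL5-Tg (-0.18 ± 0.28). All 3 had an edgeR adjusted p of at least 0.920 and a positive value without WT replicate 2.

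Abundant genes outside the stalk were less alike. Rps9 was at 1808, 3274 and 2252 CPM in WT and 1785, 1888, 1534 and 1738 CPM in IL5-Tg libraries, with 1 IL5-Tg value above the lowest WT value (log2 fold change -0.49 ± 0.27, edgeR adjusted p = 0.668). Rps14 was at 1366, 2951 and 1790 CPM in WT and 1560 to 2410 CPM in IL5-Tg (-0.01 ± 0.31). Among large-subunit genes Rpl8, at the peptidyl transferase centre, was at 1635, 2619 and 1511 CPM in WT and 1428 to 1753 CPM in IL5-Tg (-0.31 ± 0.27).

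Several ribosomal proteins have roles outside translation. Rpl5 and Rpl11, which bind Mdm2 and stabilise p53 when ribosome assembly is disturbed, were at 141 to 228 and 257 to 480 CPM in WT and 94.3 to 163 and 267 to 291 CPM in IL5-Tg libraries, with log2 fold changes of -0.49 ± 0.28 and -0.48 ± 0.26. Rps6, the substrate of the S6 kinases downstream of mTOR, was at 226, 248 and 138 CPM in WT and 178.7 to 187 CPM in IL5-Tg, where its values were close together (-0.16 ± 0.25). Rpl13a, which is part of an interferon-gamma-activated inhibitor of translation, was at 1412 to 2408 and 1478 to 1835 CPM (-0.11 ± 0.27). Rps3, also known as a partner of NF-kappaB, was at 1392 to 2325 and 1357 to 1690 CPM (-0.20 ± 0.26), and Rpsa, also known as the laminin receptor, at 609 to 1488 and 842 to 964 CPM (-0.15 ± 0.31). Rps19, the gene most often mutated in Diamond-Blackfan anaemia, was at 434, 699 and 197 CPM in WT and 320 to 430 CPM in IL5-Tg (-0.22 ± 0.37). Rpl38, which is needed for translation of Hox messenger RNAs, was at 231, 362 and 150 CPM in WT and 163 to 190 CPM in IL5-Tg (-0.50 ± 0.29). None of these 8 genes passed the test, with edgeR adjusted p-values from 0.660 to 0.956.

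Members differed in how much they varied between libraries. The SD of log2(CPM + 1) over all 7 libraries was smallest for Rps3a1 (0.200), Rpl4 (0.214) and Rpl15 (0.223) and largest for Rpl22l1 (0.786), Rpl36a (0.785) and Rps29 (0.628) among the 77 genes. Rpl4 was highest in WT replicate 1, at 1141 CPM, and at 880 and 884 CPM in the other WT libraries, so it did not share the peak in WT replicate 2. Rps3a1 was likewise highest in WT replicate 1 (654 CPM), and Rpl15 had nearly equal values in WT replicates 1 and 2 (151 and 153 CPM). Rpl36a was at 157, 142 and 29.3 CPM in WT and 79.0 to 108 CPM in IL5-Tg, and Rps29 at 242, 257 and 81.1 CPM in WT and 102 to 133 CPM in IL5-Tg. In both, WT replicate 3 was below all 4 IL5-Tg libraries and the other WT libraries were above them (log2 fold changes -0.31 ± 0.47 and -0.74 ± 0.36, edgeR adjusted p = 0.920 and 0.594).

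Of the ribosomal proteins that the symbol rule does not take, 4 were tested, with a median log2 fold change of -0.29, and 3 are described. Fau, which encodes a ribosomal protein fused to a ubiquitin-like protein, had a log2 fold change of -0.26 ± 0.28, and Rpl36al of -0.32 ± 0.22. Gnb2l1, the older symbol of the scaffold protein gene Rack1, was at 0.04 ± 0.31. These 3 genes had their highest value in WT replicate 2, and none passed (edgeR adjusted p from 0.775 to 0.983).

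Other genes of translation were described from lists in the same fit, and 0 members of any of them were called in either direction. The median log2 fold change was -0.04 over 15 elongation and poly(A) factors and other genes with TOP messenger RNAs, where Tpt1 was at -0.43, and -0.04 over 26 initiation factors. The 2 genes of that list with the smallest p are given. Eif5, which triggers GTP hydrolysis at the start codon, was at 270 ± 6.11 CPM (SD, n = 3) in WT and 168 ± 21.1 CPM (SD, n = 4) in IL5-Tg, and Eif1, which guards start codon choice, at 597 ± 83.9 and 391 ± 60.6 CPM. Both had every IL5-Tg library below every WT library, as had 4.6% of all tested genes (log2 fold changes -0.68 ± 0.21 and -0.61 ± 0.23, edgeR adjusted p = 0.331 and 0.468).

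The list medians were 0.06 over 46 ribosome biogenesis factors, -0.07 over 17 genes of RNA polymerase I and its factors, and -0.26 over 19 genes of mTOR and TOP control. In the last list Mlst8, a shared subunit of the mTOR complexes, was at 0.69 ± 0.30 (edgeR adjusted p = 0.536) and Rictor at -1.001 ± 0.46 (edgeR adjusted p = 0.572). The 77 mitochondrial ribosomal protein genes, which build the separate ribosome of that organelle, had a median of 0.03, with 34 negative and 43 positive values. Their summed level was nevertheless highest in WT replicate 2 (3177 CPM) and lowest in WT replicate 3 (1706 CPM), with 2271 to 2703 CPM in the IL5-Tg libraries. The cytosolic genes had the same highest and lowest library, at 70678 and 37141 CPM, with 42137 to 46934 CPM in the IL5-Tg libraries.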

How the data were processed

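The authors deposited raw counts of reads, a whole number for each gene symbol and library. STAR, Bowtie and bcl2fastq 2.20 are named with mm10, per the submitters' processing notes. What each did, how reads were counted, on which annotation and with which strand setting is not given in the sources used here. The 2 rows that name no gene (9.15% to 18.2% and 0.750% to 0.943% of a library) were left out. The test was edgeR 4.0.16 in R 4.3.3 (quasi-likelihood, TMM, filterByExpr, robust, all 7 libraries, genotype as the only term), and a gene was called when its Benjamini-Hochberg adjusted p over all 12428 tested genes was under 0.05. The F statistic and the fold change gave the standard errors. The procedure was also run on simulated data, with independent genes and the same spread in both genotypes. That run therefore does not cover the shared movement and unequal spread of the members seen here. Replicate numbers follow accession order. The members and gene lists were chosen with earlier results of these data known. Named genes were the 4 smallest p in each direction, the 4 highest CPM per subunit, stalk proteins, related copies, members with other roles, the 3 largest and smallest SDs, and 2 genes of a list. Some genes under this rule are not reported here. Sequences and positions are from RefSeq and GENCODE vM21, with the shortest transcript of the best APPRIS class. Alternatives were other normalizations, DESeq2 1.42.0, limma 3.58.1 voom, other filters, a block by title start and the removal of each library in turn.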

Additional observations from a re-analysis of the deposited data

How the results depend on the processing

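In all 18 alternative settings 0 ribosomal protein genes were called, while the number of called genes over the whole table was 51 in the test as reported, 225 by DESeq2 (141 higher and 84 lower), 32 by limma-voom (24 and 8), 39 with the GC offset, and 16 to 97 when 1 library was left out. The members' median log2 fold change ran from -0.36 to -0.25 under the other normalizations, tools, filters and the GC offset, from -0.47 to 0.02 when 1 library was left out, and was -0.26 over the 28 members with the fewest shared windows. Over all tested genes the median ran from -0.01 to 0.11 when 1 library was left out. The difference in the share of reads was -0.38 points with the rows that name no gene in the total and -1.62 to 0.14 with 1 library left out. No paired analysis was possible because replicate numbers are no guide to pairs: they follow accession order and tie no libraries together. A block by the first characters of the titles, which some libraries share and whose meaning the labels do not give, was fitted in its place, and with it 52 genes were called over the whole table, the members' median was -0.46 and 79 members were negative. It rests on WT replicate 1 beside IL5-Tg replicate 3 and WT replicate 2 beside IL5-Tg replicate 4. Values of several members changed sign, and the cause was not tested. Some named genes are given here. With 1 library left out, the changes reached genes further from 0, such as Rps27 at -0.99 and Rpl8 at -0.31 with all libraries. Without WT replicate 2, 38 of 82 members were negative, beside 77 with all libraries. Rpl15 was at 0.0087 with RLE and DESeq2, 0.006 with upper quartiles, 0.0028 with library totals and 0.0073 with no filter. Rps14 was at 0.0013, 0.016, 0.1345 and 0.0113 with upper quartiles, totals, voom and no filter, and Rplp0 at 0.0113, 0.0813 and 0.0067 with totals, voom and no filter. Rpl7a was at -0.108 with the block and -0.077 with the GC offset, and Rpl22l1 at 0.2072 with that offset. With 1 library left out, sign changed within -0.23 to 0.22 for Rpl13a, -0.17 to 0.12 for Rpl15, -0.49 to 0.89 for Rpl22l1, -0.74 to 0.05 for Rpl36a, -0.0711 to 0.346 for Rpl7a, -0.44 to 0.0087 for Rpl8, -0.20 to 0.48 for Rplp0, -0.42 to 0.25 for Rplp1, -0.32 to 0.18 for Rplp2, -0.22 to 0.38 for Rps14, -0.56 to 0.30 for Rps19, -1.41 to 0.26 for Rps27, -0.54 to 0.14 for Rps27l, -0.34 to 0.0591 for Rps3, -0.35 to 0.0361 for Rps6 and -0.39 to 0.29 for Rpsa. Rpl10l, Rpl39l and Rpl3l have few reads, so their values are imprecise, and how far shared reads set the counts of Rpl26 and Rps27 was not tested.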
